A study of Mus musculus with 6 samples.

Results

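The genes described here are 8 transcription factors and cofactors of the general somite and paraxial mesoderm program: Tcf15, Meox1, Meox2, Six4, Eya1, Eya2, Ebf2 and Sim2. They were taken by name, and a probe set was counted for a gene when the platform annotation gave that gene symbol and no other. All 8 had at least 1 such probe set, and together they had 13 of the 22626 probe sets tested, or 8 of the 12393 genes. The mutant group consisted of 3 pools of embryos homozygous for the neo insertion allele of Dll3 (Dll3neo/neo, also written Dll3-tm1Rbe/tm1Rbe). The other group consisted of 3 pools of wild-type (Dll3+/+) embryos. Strain (c57bl/6) and age (9.5 days post coitum) were the same in both groups, and each pool was hybridised to 1 Affymetrix MOE430A array. The tissue ran from the otic placode to the newest somite with heart and endoderm taken off, so it held neural tube and other trunk tissues beside the somites. How many embryos made up a pool was not stated in the labels.

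Somites are epithelial blocks that bud from the paraxial mesoderm and give rise to vertebrae, ribs, trunk muscle and dermis, and Dll3, a Notch pathway ligand, is needed for their regular spacing. Tcf15, also called paraxis, is a bHLH factor that makes the somite wall epithelial, and the homeobox factors Meox1 and Meox2 act in every somite to keep sclerotome and muscle development going. Six4 and its relatives are homeobox proteins that bind DNA, and Eya proteins join them as coactivators, a pair used in the dermomyotome and also in kidney, ear and sensory ganglia. Ebf2 is a helix-loop-helix factor of mesoderm and neurons, and Sim2 is a bHLH-PAS factor that works as a dimer with Arnt.

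Of the 8 genes, Meox2 and Six4 matched the RefSeq table of promoter windows (GRCm38.p6). The stretch before the Meox2 start is shown because Meox2 had the largest mean difference between the genotypes among these genes. The 250 bases directly upstream of the start lie at chr12:37108290-37108539 on the plus strand. Capitals mark, in this order, TGGGAA (the core bound by RBPJ, the DNA-binding partner of Notch), an E-box (CANNTG, the site of bHLH factors such as Tcf15) and TTTATA, which is the TATAAA box read on the other strand.
Meox2 upstream: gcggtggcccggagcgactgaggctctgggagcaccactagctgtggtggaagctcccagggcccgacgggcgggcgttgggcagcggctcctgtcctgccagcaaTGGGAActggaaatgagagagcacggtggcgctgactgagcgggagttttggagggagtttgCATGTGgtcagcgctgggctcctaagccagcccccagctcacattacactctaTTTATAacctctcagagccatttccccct
Both strands were searched, and no marked motif overlapped another. The RBPJ core was present in 21.6% of all 32851 windows of this length, the E-box in 66.2% and the TATA box in 12.4%, so each is a common string.

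The 9-letter MEF3 motif TCAGGTTTC, the element bound by Six4 and its relatives in muscle genes, was also searched on both strands. It was present in 0.387% of the windows. A match lay 99 to 91 bases before an annotated start of Six4 itself, and it is shown with 10 bases on either side (chr12:73113326-73113354, minus strand), with the motif in capitals as its reverse complement GAAACCTGA.
Six4 site: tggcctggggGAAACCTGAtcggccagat
Neither the Meox2 window nor that of another annotated Six4 start (chr12:73113426-73113675, minus strand) held a MEF3 match. The site shown lies downstream of that other Six4 start. These are matches of letters, and binding was not measured.

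Each value is a linear ratio of a pool to a reference of the same probe set, and the reference is the median of the 6 pools for most rows. A ratio holds no signal level. The 8 genes therefore cannot be ranked by abundance, and whether the tissue markers were detected at all cannot be read from the table. A probe set near background would also give ratios near 1. In bulk tissue, fewer cells of a type and less RNA per cell cannot be told apart. Dll3 itself, the targeted gene, had a log2 difference of -0.02 (95% interval -0.18 to 0.14), and where its probe set lies with respect to the insertion was not stated in the labels, so this value does not check the genotypes.

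Mutant and wild-type pools were compared to ask whether these general somite factors differ in level when segmentation is disturbed through Dll3. None of the 13 probe sets passed an adjusted p of 0.05 in limma (Benjamini-Hochberg over all 22626 probe sets, 0% of which passed), and each had an adjusted p of 0.99996. None had an unadjusted p under 0.05, against 2.63% of all probe sets, and in none were the pools of the genotypes separated, against 7.46% of all probe sets. By gene, taking the mean log2 ratio of its probe sets, 4 were higher and 4 lower in mutant pools (51.9% of all genes were higher and 48.1% lower), and the median difference was -0.0022 beside 0.0035 over all genes. The smallest two-sided p that an exact permutation of 6 pools can give here is 0.1. Precision is limited by the number of arrays, and log2 differences had a median SE of 0.104 over the 13 probe sets and 0.099 over all probe sets. For all 13 probe sets the 95% interval stayed inside a log2 difference of -1 to 1, as it did for 99.96% of all probe sets, and the outermost bounds were -0.61 and 0.37. Uncx, a homeobox gene of the caudal somite, lay at -0.998 (95% interval -1.27 to -0.72, adjusted p = 0.116 over all genes in limma) in the same pools.

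**Figure D1:**
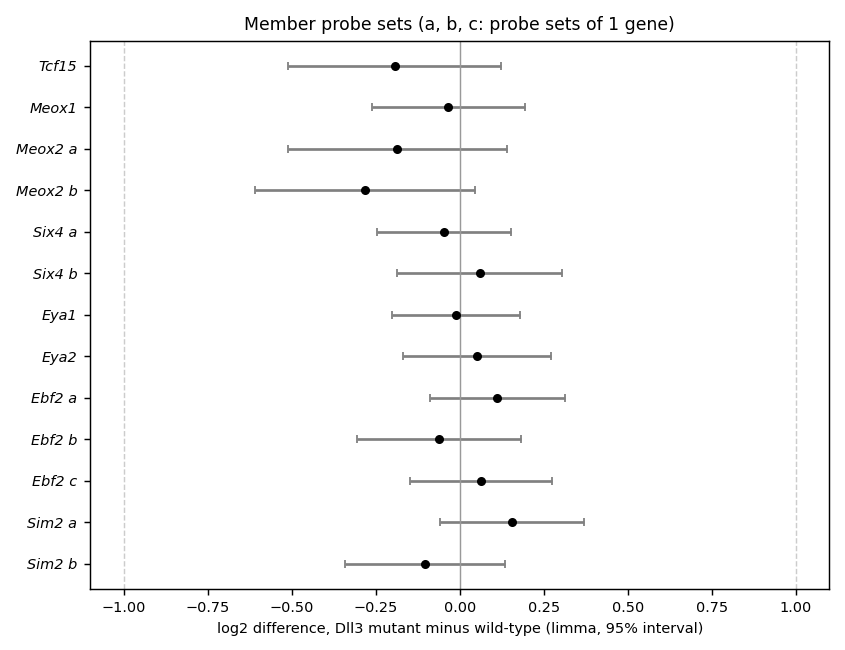
log2 difference between Dll3 mutant and wild-type pools for the 13 probe sets (horizontal axis, limma estimate with its 95% interval, 3 pools per group), with letters for several probe sets of a gene. All 13 intervals include 0 and lie between the dashed lines at -1 and 1, and the Meox2 and Tcf15 probe sets have the widest ones.

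Tcf15 was measured by 1 probe set (1449592_at). Its ratio was 0.727, 0.933 and 1.083 in mutant pools 1 to 3, against 0.895, 1.067 and 1.149 in wild-type pools 1 to 3. Mutant pool 1 was the lowest of all 6, wild-type pool 3 was the highest, and mutant pool 3 lay above both wild-type pools 1 and 2, so the groups overlapped. The mean was 0.914 ± 0.179 in mutant and 1.04 ± 0.130 in wild-type pools (SD, n = 3 each). The log2 difference was -0.19 (SE 0.144, 95% interval -0.51 to 0.12, exact two-sided permutation p = 0.5), which is smaller than the spread between pools. That spread, a within-group SD of 0.244 on the log2 scale, was at percentile 95.1 of all probe sets. Single pools moved the Tcf15 difference: it was -0.04 without mutant pool 1 and -0.32 without mutant pool 3, and -0.30 without wild-type pool 1 and -0.12 without wild-type pool 3. With array weights it was -0.099 (SE 0.114).

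Meox1 and Meox2 are related homeobox genes whose products act together in the somite. Meox1 (1417595_at) had ratios of 0.988, 0.982 and 1.114 in mutant pools, against 1.012, 0.961 and 1.192 in wild-type pools. The pools numbered 3 were the highest of each genotype, and the others lay between 0.961 and 1.012 regardless of genotype. Its log2 difference was -0.03 (SE 0.104, 95% interval -0.26 to 0.20).

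Meox2 had the largest difference of the 8 genes and was measured by 2 probe sets. The first (1424233_at) had ratios of 0.878, 0.982 and 1.018 in mutant pools, against 0.829, 1.243 and 1.254 in wild-type pools. Wild-type pools 2 and 3 were above every mutant pool and wild-type pool 1 was below every mutant pool. The second (1424234_s_at, of the kind that can match several transcripts) had ratios of 0.897, 0.822 and 1.081 in mutant pools, against 0.993, 1.007 and 1.432 in wild-type pools. Here wild-type pool 3 was far above the rest, and mutant pool 3 was above wild-type pools 1 and 2. The log2 differences were -0.19 (SE 0.148, exact two-sided permutation p = 0.4) and -0.28 (SE 0.149, exact two-sided permutation p = 0.3).

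As a gene mean, Meox2 was at -0.23 (SE 0.132, 95% interval -0.53 to 0.06, adjusted p = 0.9997 in limma). On the linear scale this is a fold of 0.850 in mutant over wild-type, with an interval of 0.694 to 1.04. Its size depended on the wild-type pools: the log2 difference was -0.38 without wild-type pool 1 and -0.10 without wild-type pool 3. Meox2 also varied more between pools of the same genotype than most genes, with a within-group SD at percentile 95.7 of all genes. The pools differed in their mix of sexes by Xist and Y-linked transcripts: a sex score, Xist minus the mean of Eif2s3y, Kdm5d and Uty, was 0.04, 0.81 and 0.73 on the log2 scale in mutant pools, against -0.08, -1.48 and -1.73 in wild-type pools. With this score as a covariate the Meox2 difference turned to 0.12 (SE 0.201), and that of Tcf15 was -0.10 (SE 0.262). Every mutant pool scored above every wild-type pool, so the sex mix and the genotype cannot be told apart in these pools. The covariate also raised the median SE over all genes from 0.087 to 0.159. The part of the sex mix in the values of both genes was not tested further.

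The probe sets of Tcf15, Meox1 and Meox2, grouped here after their values were seen, shared a feature that did not follow genotype. In all 4 of them the pool numbered 3 was the highest within the mutant group and the highest within the wild-type group. That was so for 4 of the 13 probe sets of the 8 genes, against 19.8% of all 22626 probe sets. None of the other 9 showed it. By gene mean, it held for 3 of the 8 genes and for 20.6% of all genes. Foxc1, Foxc2 and Tcf21 of the partner lists below showed it too, as did some markers of other tissues, such as Olig2 and Foxa1. Most genes of those lists did not. The pattern was therefore not particular to Tcf15, Meox1 and Meox2. No label says what the replicate numbers stand for.

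**Figure D2:**
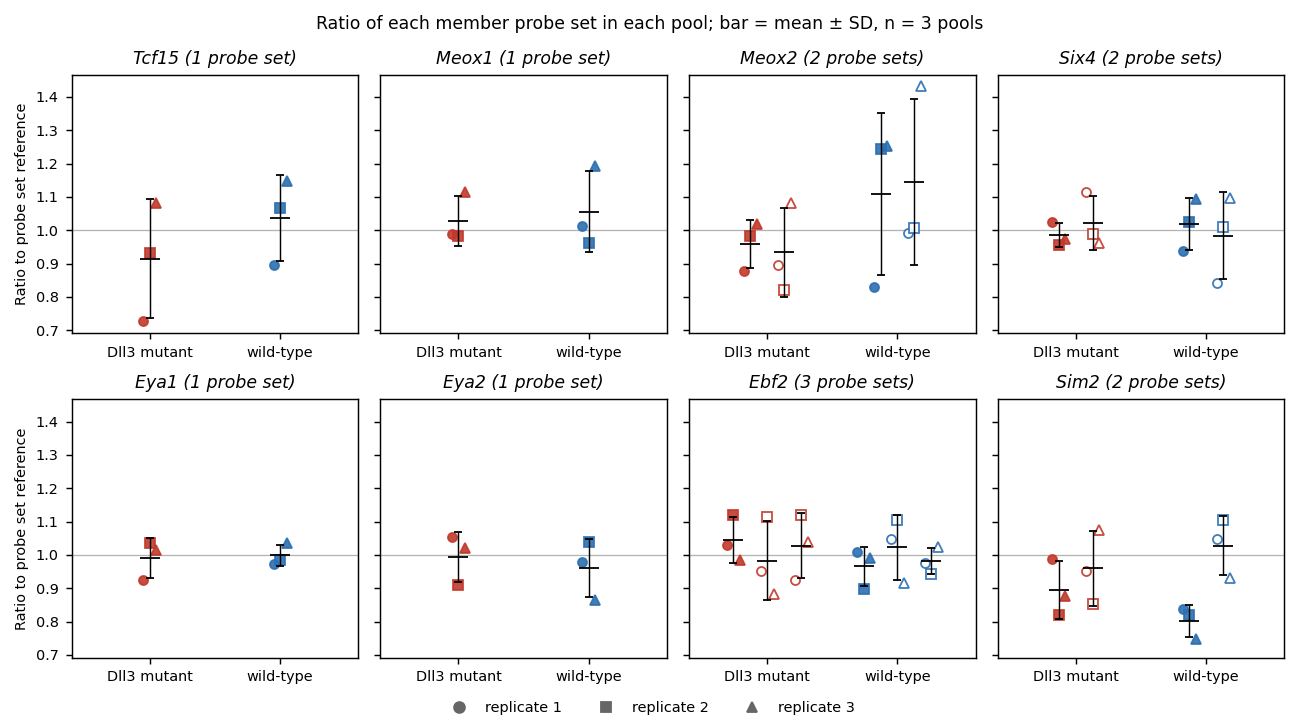
Ratio to the probe set's reference (vertical axis, no unit) in each Dll3 mutant pool (red, left) and wild-type pool (blue, right), with a symbol for each replicate number and the mean ± SD over 3 pools in black; a gene's first probe set is filled and its others are open. The groups overlap for every probe set, and triangles (replicate 3) top both groups for Tcf15, Meox1 and Meox2.

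Six4, the DNA-binding partner of the Eya proteins, was measured by 2 probe sets that went in opposite directions. The first (1425767_a_at) had ratios of 1.025, 0.957 and 0.975 in mutant pools, against 0.939, 1.026 and 1.094 in wild-type pools. The second (1427701_a_at) had ratios of 1.114, 0.989 and 0.962 in mutant pools, against 0.843, 1.011 and 1.098 in wild-type pools. Both were lowest in wild-type pool 1, and the mutant pools lay inside or just above the wild-type range. Their log2 differences were -0.05 (SE 0.090) and 0.06 (SE 0.112), and the gene mean was at 0.01 (95% interval -0.20 to 0.21). The gene mean was 0.29 (SE 0.135) with the sex score as a covariate, and -0.08 without wild-type pool 1.

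The Eya coactivators stayed between 0.866 and 1.053 in all pools. Eya1 (1421727_at), whose loss affects kidney and ear, had ratios of 0.924, 1.037 and 1.014 in mutant pools, against 0.974, 0.986 and 1.035 in wild-type pools. It was the steadiest of these genes, with a within-group SD of 0.071 on the log2 scale (percentile 22.1 of all genes), and its log2 difference was -0.01 (SE 0.087, 95% interval -0.20 to 0.18). Eya2 (1424127_at) had ratios of 1.053, 0.910 and 1.021 in mutant pools, against 0.979, 1.038 and 0.866 in wild-type pools. The highest value was in mutant pool 1 and the lowest in wild-type pool 3, with the others mixed, and the fitted log2 difference was 0.05 (SE 0.10, 95% interval -0.17 to 0.27).

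Ebf2 was measured by 3 probe sets, 2 of them higher and 1 lower in mutant pools. The first (1418494_at) had ratios of 1.031, 1.119 and 0.984 in mutant pools, against 1.008, 0.899 and 0.992 in wild-type pools. Its log2 difference of 0.11 (SE 0.091) was the largest of the 3, and mutant pool 3 lay below wild-type pools 1 and 3. The other probe sets gave -0.06 (SE 0.111; 1449101_at, with ratios of 0.882 to 1.113 in mutant and 0.916 to 1.105 in wild-type pools) and 0.06 (SE 0.095; 1449102_at, with ratios of 0.924 to 1.120 in mutant and 0.944 to 1.023 in wild-type pools). Mutant pool 2 had the highest Ebf2 ratio of all 6 pools in each of the 3 probe sets. The gene mean was at 0.04 (95% interval -0.14 to 0.22).

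The 2 probe sets of Sim2 differed in the sign of their genotype difference, with a wider gap between those differences than for Six4, Ebf2 or Meox2. The first (1419437_at) had ratios of 0.988, 0.819 and 0.878 in mutant pools, against 0.839, 0.819 and 0.748 in wild-type pools. All 6 of these ratios were below 1, with a median of 0.829, so its reference was not the median of these pools, as in 1478 of the 22626 rows. The second (1419438_at) had ratios of 0.951, 0.852 and 1.076 in mutant pools, against 1.049, 1.104 and 0.932 in wild-type pools. The log2 differences were 0.16 (SE 0.098, 95% interval -0.06 to 0.37) and -0.10 (SE 0.108, 95% interval -0.34 to 0.14), intervals that overlap each other and 0. Their mean, 0.03, therefore stands for neither probe set.

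Likeness of pattern was measured as the mean absolute difference in log2 ratio over the 6 pools, after centring each gene, among these 8 genes and 31 genes of the lists described next. Tcf15 and the gene mean of Meox2 were each nearest to the other (0.115, against their own mean deviations of 0.188 and 0.187). The 2 Meox2 probe sets lay 0.188 from each other on this measure, farther apart than Meox2 and Tcf15. The gene means of Eya2 and Sim2 were likewise nearest to each other (0.031, against own deviations of 0.091 and 0.088), but the separate Sim2 probe sets lay at 0.056 and 0.095 from Eya2, so neither of them was that close. The gene mean of Ebf2 was nearest to its paralog Ebf3 (0.035, against an own deviation of 0.057). The separate Ebf2 probe sets lay 0.067 to 0.130 from each other, farther apart than the gene means of Ebf2 and Ebf3. Eya1 was nearest to the E protein gene Tcf12 (0.040, against an own deviation of 0.049). Meox1 was nearest to Eya1 (0.083, against an own deviation of 0.10). For Eya1 and Meox1 the nearest gene was thus only a little closer than a flat profile would be. Six4 was nearest to Sim1 (0.094). The Six4 distance exceeds its own mean deviation of 0.085, so Six4 had no close match. With 6 pools, such distances describe these arrays and rank the candidates only.

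The partners and relatives of these factors were followed through 3 lists. In the network of Six4 relatives with Eya, Dach and Pax genes, 11 genes were measured. None passed the adjusted threshold (0% of all genes did), 5 were higher and 6 lower, and the list's median was -0.0063. Eya4, a paralog of Eya1 and Eya2, had the only unadjusted p under 0.05 in that list, against 2.67% of all genes. Its ratio was 0.980, 0.945 and 0.863 in mutant pools, against 1.020, 1.073 and 1.164 in wild-type pools. Every mutant pool was below every wild-type pool, and the groups did not overlap for 7.46% of all genes. The log2 difference was -0.22 (SE 0.084, adjusted p = 0.9997 in limma), so Eya4 did not pass.

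Among relatives and partners of Ebf and Sim factors, 6 of 7 genes were measured, with 4 higher, 2 lower, the median at 0.01 and none past the adjusted threshold. Zfp423, a zinc finger protein that binds Ebf factors, had ratios of 1.019, 1.243 and 1.034 in mutant pools, against 0.981, 0.946 and 0.834 in wild-type pools. By gene mean, Zfp423 had the only unadjusted p under 0.05 in this list, against 2.67% of all genes. Its groups did not overlap, against 7.46% of all genes. Mutant pool 2 was well above the rest, and the log2 difference was 0.25 (SE 0.10, adjusted p = 0.9997 in limma). Arnt, which encodes the dimer partner of Sim proteins, was at -0.15 (SE 0.083) and Ebf1 at 0.13 (SE 0.088). Both were named after their values were seen. The Ebf1 probe sets were at 0.24 (SE 0.097), 0.05 (SE 0.099) and 0.10 (SE 0.106). Only in the first did the groups not overlap, against 7.46% of all probe sets.

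Among partners of Tcf15 and Meox factors and their neighbours in the somite network, 14 of 15 genes were measured, with 5 higher, 9 lower and the median at -0.04. None passed the adjusted threshold, and Uncx had the only unadjusted p under 0.05, against 2.67% of all genes. The other 13 included the E protein genes Tcf3, Tcf4 and Tcf12, whose products dimerise with Tcf15, at 0.03 (SE 0.10), -0.05 (SE 0.093) and -0.09 (SE 0.088). Nkx3-2, a sclerotome gene that Meox1 is known to activate, was at -0.03 (SE 0.087). The groups did not overlap for 2 of the 14 genes, Uncx and Scx, against 7.46% of all genes. Scx was at -0.13 (SE 0.073, unadjusted p = 0.104 in limma).

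**Figure D3:**
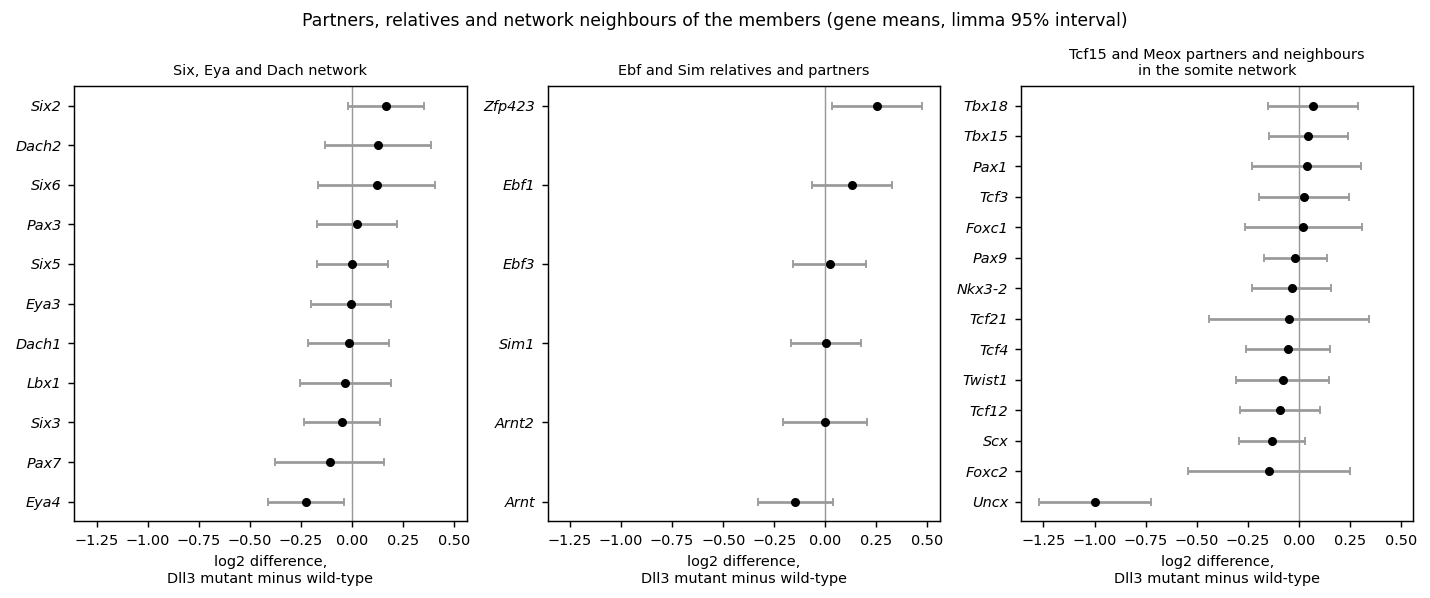
log2 difference between Dll3 mutant and wild-type pools (horizontal axes, limma estimate of the gene mean with its 95% interval, 3 pools per group) for the 31 measured genes of the 3 lists, ordered by difference within each panel. Uncx at -0.998 stands apart, and the intervals of Eya4 and Zfp423 are the other ones that leave out 0, neither passing the adjusted threshold.

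Markers of the tissues in the dissection were set beside these genes. The 10 genes of paraxial mesoderm outside the 8 had a mean log2 level of -0.12, -0.05 and 0.07 in mutant pools, against 0.02, 0.03 and 0.02 in wild-type pools, with 4 of 10 higher in mutant pools and 6 lower. Mutant pool 1, the lowest pool for Tcf15, was also the lowest for this list, and likewise for the neuronal list (-0.15) and for 5 endothelial genes (-0.13). The same pool was the highest of all 6 for the placode list (0.15) and the intermediate mesoderm list (0.09). All 4 measured blood genes were higher in mutant pools (51.9% of all genes were), with means of 0.04, 0.31 and 0.04 in mutant pools, against -0.09 and -0.23 in wild-type pools 2 and 3 and a value near 0 in wild-type pool 1. Slc4a1, the erythroid anion exchanger gene, at a log2 difference of 0.28 (SE 0.095) and Hba-x, an embryonic globin gene, at 0.24 (SE 0.086) had an unadjusted p under 0.05 in limma and groups that did not overlap, against 2.67% and 7.46% of all genes. The mean of the 7 measured neuronal genes ranged from -0.15 to 0.32 in mutant pools, highest in pool 2, and from -0.07 to 0.06 in wild-type pools. The mean of placode genes (5 measured, 1 higher) ranged from -0.06 to 0.15 in mutant and from -0.01 to 0.10 in wild-type pools, and that of intermediate mesoderm genes (5 measured, 4 higher) from -0.08 to 0.09 in mutant and from -0.02 to 0.01 in wild-type pools. Of the other marker lists, 8 of 10 neural tube genes, 3 of 5 neural crest, 3 of 6 lateral plate and limb, 3 of 5 endothelial, 4 of 6 endoderm and 3 of 5 heart genes were higher in mutant pools. Among them Tbx4, a hindlimb gene, was at -0.31 (SE 0.124), the only other marker at an unadjusted p under 0.05 in limma. None of the markers passed the adjusted threshold. Their part in the values of the 8 genes was not tested.

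**Figure D4:**
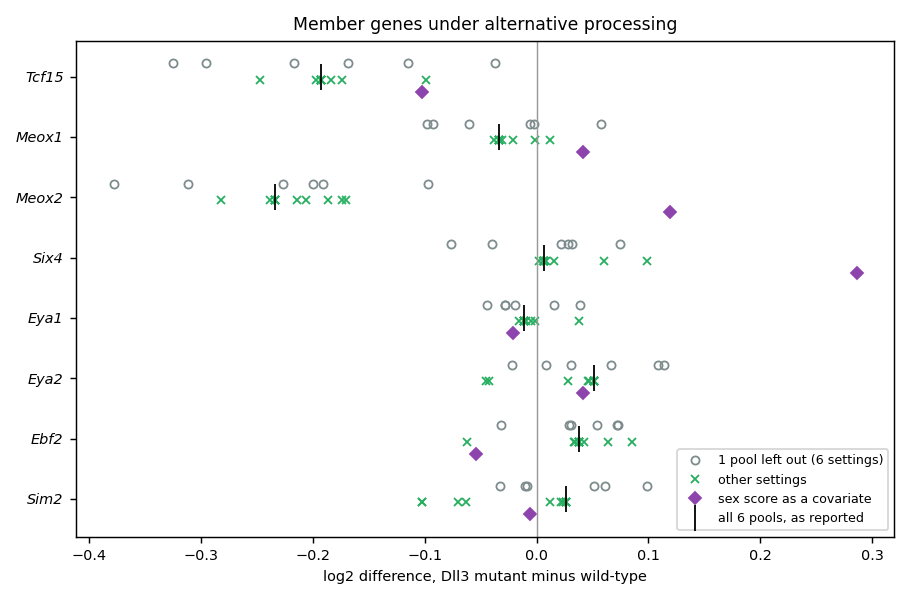
log2 difference between Dll3 mutant and wild-type pools (horizontal axis) for each of the 8 genes as reported (black bar) and under alternative processing (grey circles with 1 pool left out, violet diamonds with the sex score as a covariate, green crosses for other settings). Tcf15 stayed below 0 in all 18 alternatives and Meox2 in all but the sex score, while the other 6 genes fall on both sides of 0, Six4 only through settings with a pool left out; the point farthest to the right is Six4 with the sex score, at 0.29.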

How the data were processed

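RNA of 3 Dll3 mutant and 3 wild-type pools was measured on Affymetrix MOE430A arrays. The authors deposited 1 table of 22690 probe sets, whose values are, from the values themselves, linear ratios to a reference of each probe set. Per the submitters' processing notes the tools were RMA and MAS5, with neither version nor role, and no source used here states the scaling. From the table, 64 control probe sets were left out. The log2 ratio of 22626 probe sets, and of 12393 genes as the mean of their probe sets, was fitted with limma 3.58.1 in R 4.3.3 (genotype only, no variance trend, no pseudocount, two-sided; threshold 0.05 after Benjamini-Hochberg adjustment). The fit was tested on simulated data. GEO's platform annotation gave a single symbol for 20380 probe sets; the 691 with several symbols and 1555 without any were tested unnamed.

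The 8 genes and the lists were chosen with earlier results of these data known. Of each list of partners, the genes with an unadjusted p under 0.05 are named, or else the 3 of smallest p. Tcf3, Tcf4, Tcf12, Nkx3-2, Arnt and Ebf1 were added after their values were seen, as known partners, targets or relatives. Scx was added because its groups did not overlap. Marker genes with an unadjusted p under 0.05 are named too. The pools are described as biological replicates in the series design. Alternatives were a replicate block, a variance trend, a robust fit, array weights, quantile normalization, median centring, a pseudocount of 0.1, removal of rows with a median below 1, removal of _x_at and _s_at probe sets, the most variable probe set per gene, each pool left out, both pools numbered 3 left out, and the sex score as a covariate. Figures were drawn with matplotlib 3.10.9.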

Additional observations from a re-analysis of the deposited data

How the results depend on the processing

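None of the 13 probe sets passed the adjusted threshold in any of the 17 alternatives. At an unadjusted p under 0.05 the count was 0 as reported, 2 (Meox2 and Tcf15) with the replicate block or without mutant pool 3, 2 (both of Meox2) without wild-type pool 1, 1 (Sim2) without both pools numbered 3 and 1 (Six4) with the sex score. Over all probe sets the count past it, 0 as reported (595 at an unadjusted p under 0.05), was 1 with the replicate block, 1 with array weights, 2 with the robust fit with a variance trend, and 0 to 1 with a pool left out. No label says what the numbers of the pools stand for, so whether they pair the pools is not known. Deviations of same-numbered pools correlated at 0.37, -0.02 and 0.37 over 22626 probe sets. For pools of different numbers the range was -0.43 to 0.20. These deviations were taken from the group mean, so they cancel within a genotype and the correlations constrain each other. The correlations therefore cannot decide whether the pools are paired. With the replicate block the median SE over all probe sets was 0.088, against 0.099 as reported, and 1072 had an unadjusted p under 0.05. The replicate block left each log2 difference as it was and called none of the 8 genes (Meox2 -0.23, unadjusted p = 0.0167 and adjusted p = 0.971 in limma; Tcf15 -0.19, unadjusted p = 0.0271). The direction of genes near 0 changed with the setting, and the cause was not tested. With array weights Meox1 was at 0.012, Eya1 at 0.038, Eya2 at -0.045 and Sim2 at -0.063. With the sex score Meox1 was at 0.042, Meox2 at 0.12, Ebf2 at -0.054 and Sim2 at -0.0061. Without both pools numbered 3 Eya2 was at -0.042 and Sim2 at -0.070. With the most variable probe set per gene Ebf2 was at -0.062 and Sim2 at -0.10, and Sim2 was at -0.10 without rows of median below 1, which leaves its second probe set alone. With a pool left out the ranges were -0.098 to 0.057 for Meox1, -0.076 to 0.074 for Six4, -0.044 to 0.039 for Eya1, -0.022 to 0.11 for Eya2, -0.032 to 0.073 for Ebf2 and -0.033 to 0.099 for Sim2. Ratios keep no signal over background, so no filter on dim probe sets was possible, and a member near background cannot be told from a steady one.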
